A study of Mus musculus with 2 samples.

Results

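Smooth muscle cells contract with a set of actin-linked proteins that fibroblasts also make when they are spread on plastic or activated. The genes described here are 9 of that set, Tagln, Tagln2, Cnn1, Cnn2, Myh11, Smtn, Lmod1, Cald1 and Mylk, taken by symbol from the 26100 genes listed in both libraries. All 9 were found. They were measured by single-cell RNA sequencing in mouse embryonic fibroblasts (MEF) and in induced myogenic progenitor cells (iMPC), which were derived from fibroblasts. Both cultures had the genotype Tg:Pax7-nGFP/C57BL6;DBA2, in which a green nuclear reporter follows Pax7. The MEF culture was kept in MEF medium. The iMPC culture was made with MyoD, a transcription factor that turns fibroblasts toward muscle, plus a treatment abbreviated F/R/C, and was kept in medium with F/R/C. The series text speaks of a stable clone, so the iMPC values come from 1 clonal culture, and how many embryos gave the fibroblasts is not given in the sources used here.

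Contraction of smooth muscle begins when calcium and calmodulin activate myosin light chain kinase, encoded by Mylk. The kinase phosphorylates the regulatory light chain of myosin, whose smooth muscle heavy chain is encoded by Myh11. On the thin filament, calponins and caldesmon restrain the myosin motor, transgelins and smoothelin bind and organise actin, and leiomodin starts new filaments. Transcription of many of these genes is driven by serum response factor (SRF), which binds a DNA element called the CArG box together with myocardin or its relatives Mrtfa and Mrtfb. Skeletal muscle uses other heavy chains, actins, leiomodins and light chain kinases for the same tasks. Several of the 9 genes make isoforms for smooth muscle and for other cells, among them Cald1 and Mylk, and counts of 3′ ends do not separate them.

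The 9 genes lie on GRCm38, as GENCODE M21 annotates it, at chromosome 9, 45929619 to 45936058 (Tagln), chromosome 1, 172500047 to 172507380 (Tagln2), chromosome 9, 22099216 to 22109630 (Cnn1) and chromosome 10, 79988584 to 79996062 (Cnn2). Myh11 lies at chromosome 16, 14194535 to 14291372, Smtn at chromosome 11, 3517523 to 3540612, and Lmod1 at chromosome 1, 135324807 to 135368065. Cald1 lies at chromosome 6, 34598500 to 34775473, and Mylk at chromosome 16, 34745210 to 35002420. Counts are given per gene, with no split by isoform. Tagln, Smtn, Lmod1, Cald1 and Mylk each overlap at least 1 annotated gene on the opposite strand, Pcsk7 in the case of Tagln.

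Promoter windows came from RefSeq (GRCm38.p6) and ran from 250 bases before a gene's start to 50 after it. They were matched for 7 of the 9 genes, with 2 windows for Cald1. Tagln and Myh11 had no window and were not searched. The matched windows were searched on both strands for the CArG box, which is 2 C, a core of 6 A or T, and 2 G. Of the 8 windows, 1 held a full box, that of Cnn2. A full box was found in 1.63% of 32851 windows of the same length, and a full box or one with 1 G or C in the core in 9.98%. The calponin pair is shown because the genes are paralogs and both were far lower in iMPC, and Myl9, the light chain that the kinase acts on, because its window held a full box, a choice made after the matches were seen. The window of Acta2, the α-smooth muscle actin, held 2 boxes with 1 G or C in the core and no full one. Each stretch of 130 bases runs 5′ to 3′ on the plus strand from 170 to 41 bases before the RefSeq start, which for Cnn1 and Cnn2 is not the GENCODE start given above, with boxes of either kind in capitals. The stretches are chr9:22099083-22099212 for Cnn1, chr10:79988430-79988559 for Cnn2 and chr2:156775294-156775423 for Myl9.
Cnn1: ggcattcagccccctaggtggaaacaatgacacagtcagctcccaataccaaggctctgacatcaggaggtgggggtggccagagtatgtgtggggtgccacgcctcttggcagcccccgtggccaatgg
Cnn2: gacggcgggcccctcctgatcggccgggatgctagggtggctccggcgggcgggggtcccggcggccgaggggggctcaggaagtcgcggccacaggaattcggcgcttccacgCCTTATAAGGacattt
Myl9: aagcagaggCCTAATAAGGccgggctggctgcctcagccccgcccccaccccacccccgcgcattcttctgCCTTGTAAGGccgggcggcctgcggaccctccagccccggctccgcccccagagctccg
The box of Cnn2 starts at 79988544, 56 bases before the RefSeq start, and Myl9 had a full box and one with a G in its core. A match is a description of letters, and no match says only that these letters are not in the window.

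Each group held 1 library, so differences could not be set against a spread between replicates, and none was tested; every interval is an exact 95% interval for counting error alone. Culture and library cannot be told apart. After removal of barcodes with over 20% mitochondrial UMIs (unique molecular identifiers, which count captured RNA molecules), 6043 MEF cells with 118069653 UMIs and 9349 iMPC cells with 232728796 UMIs were kept. The medians were 18929 and 20846 UMIs per cell. An iMPC barcode counted as a cell from 8036 UMIs, whereas the MEF library was deposited with its own selection of barcodes and 661 of its kept cells lay below that number. Only 16 kept cells shared a barcode between the libraries. Fibroblast markers fitted the MEF label: 8 of 8 stood at 10 CPM or more (a gene's UMIs per 1000000 UMIs of the group), while 4 myoblast markers summed to 0.161 CPM.

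Within iMPC 4 classes of cells were read from UMI counts. The Pax7 class (2180 cells) had Pax7, the satellite cell factor, and 0 Myog UMIs. The Myog class (1724 cells) had at least 5 UMIs of Myog, a factor of muscle differentiation, and at most 1 of Ckm. The Ckm class (1037 cells) had at least 5 UMIs of Ckm, the muscle creatine kinase. The Dcn class (553 cells) had at least 5 UMIs of Dcn, a matrix proteoglycan of fibroblasts, and shared 110 cells with the Pax7 class and 18 with each of the others. The remaining 4001 cells were in no class. Median depth was 18729.5, 23857.5, 42148 and 18064 UMIs per cell in the same order, and classes set on raw counts favour deep cells.

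The data show 3 patterns among the 9 genes. Tagln, Cnn1, Cnn2, Lmod1 and Myh11 were high in MEF and at least 4-fold lower in every iMPC class. Cald1 and Tagln2 were higher in the Pax7 and Dcn classes than in the Myog class and were lowest in the Ckm class. Cald1 was 3.59-fold below MEF in the Pax7 class and 1.96-fold in the Dcn class, while Tagln2 was slightly above MEF in both. Smtn was higher in the Ckm and Dcn classes than in MEF, and Mylk differed little between MEF and these classes.

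Tagln, the actin cross-linker SM22α and a standard early marker of smooth muscle, stood at 3600 CPM in MEF, 90.9 in the Pax7 class, 41.0 in the Myog class, 53.7 in the Ckm class and 162 in the Dcn class. MEF was the highest by far, and the intervals of the 5 groups did not overlap. Over all kept iMPC cells Tagln was at 97.9 CPM, 36.8-fold lower than in MEF, a log2 ratio of -5.20 (-5.22 to -5.18). Cnn1, basic calponin and a marker of differentiated smooth muscle, was at 146 CPM in MEF and at 1.34, 0.714, 0.391 and 2.79 CPM in the Pax7, Myog, Ckm and Dcn classes. The ratio of iMPC to MEF was -5.89 on the log2 scale (-6.02 to -5.77), from 573 and 17272 UMIs, and the Cnn1 intervals of the Myog and Ckm classes overlapped. The Dcn class came closest to MEF for both genes and still lay 22.2-fold below it for Tagln and 52.4-fold for Cnn1.

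Myh11, the smooth muscle myosin heavy chain, was at 27.9 CPM in MEF, 1.79 in the Pax7 class, 1.21 in the Myog class, 0.925 in the Ckm class and 6.49 in the Dcn class. The class intervals for Pax7 and Myog overlapped, as did those for Myog and Ckm. Lmod1, the leiomodin of smooth muscle, stood at 88.1 CPM in MEF and at 3.98, 6.06, 15.02 and 15.7 CPM in the 4 classes. Its Ckm and Dcn classes had overlapping intervals. Cnn2, the calponin of non-muscle and smooth muscle cells, was at 525 CPM in MEF and at 83.0, 34.8, 36.4 and 122 CPM in the classes, the Myog and Ckm classes having overlapping intervals.

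Cald1, caldesmon, which blocks myosin on actin until it is phosphorylated, stood at 1930 CPM in MEF, 537 in the Pax7 class, 126 in the Myog class, 56.1 in the Ckm class and 984 in the Dcn class. The Dcn class was 1.96-fold below MEF and the Ckm class 34.4-fold. Tagln2, the transgelin of non-muscle cells, was at 423 CPM in MEF and at 536, 128, 43.1 and 596 CPM in the classes. It was therefore 1.27-fold higher in the Pax7 class than in MEF while Tagln was 39.6-fold lower. Across the 5 groups Tagln2 and Cald1 shared their order within iMPC, with Dcn above Pax7 above Myog above Ckm, and parted only in MEF.

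Smtn, smoothelin, an actin-associated protein named for contractile smooth muscle, was at 17.7 CPM in MEF, 16.2 in the Pax7 class, 27.3 in the Myog class, 49.5 in the Ckm class and 52.7 in the Dcn class. MEF and the Pax7 class had overlapping intervals, as had the Ckm and Dcn classes, and the Myog class lay between. Mylk, the kinase, was at 12.8 CPM in MEF and at 5.32, 5.48, 11.6 and 13.7 CPM in the classes. Its intervals overlapped between MEF and the Ckm and Dcn classes, and between the Pax7 and Myog classes, which were the low pair.

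**Figure D1:**
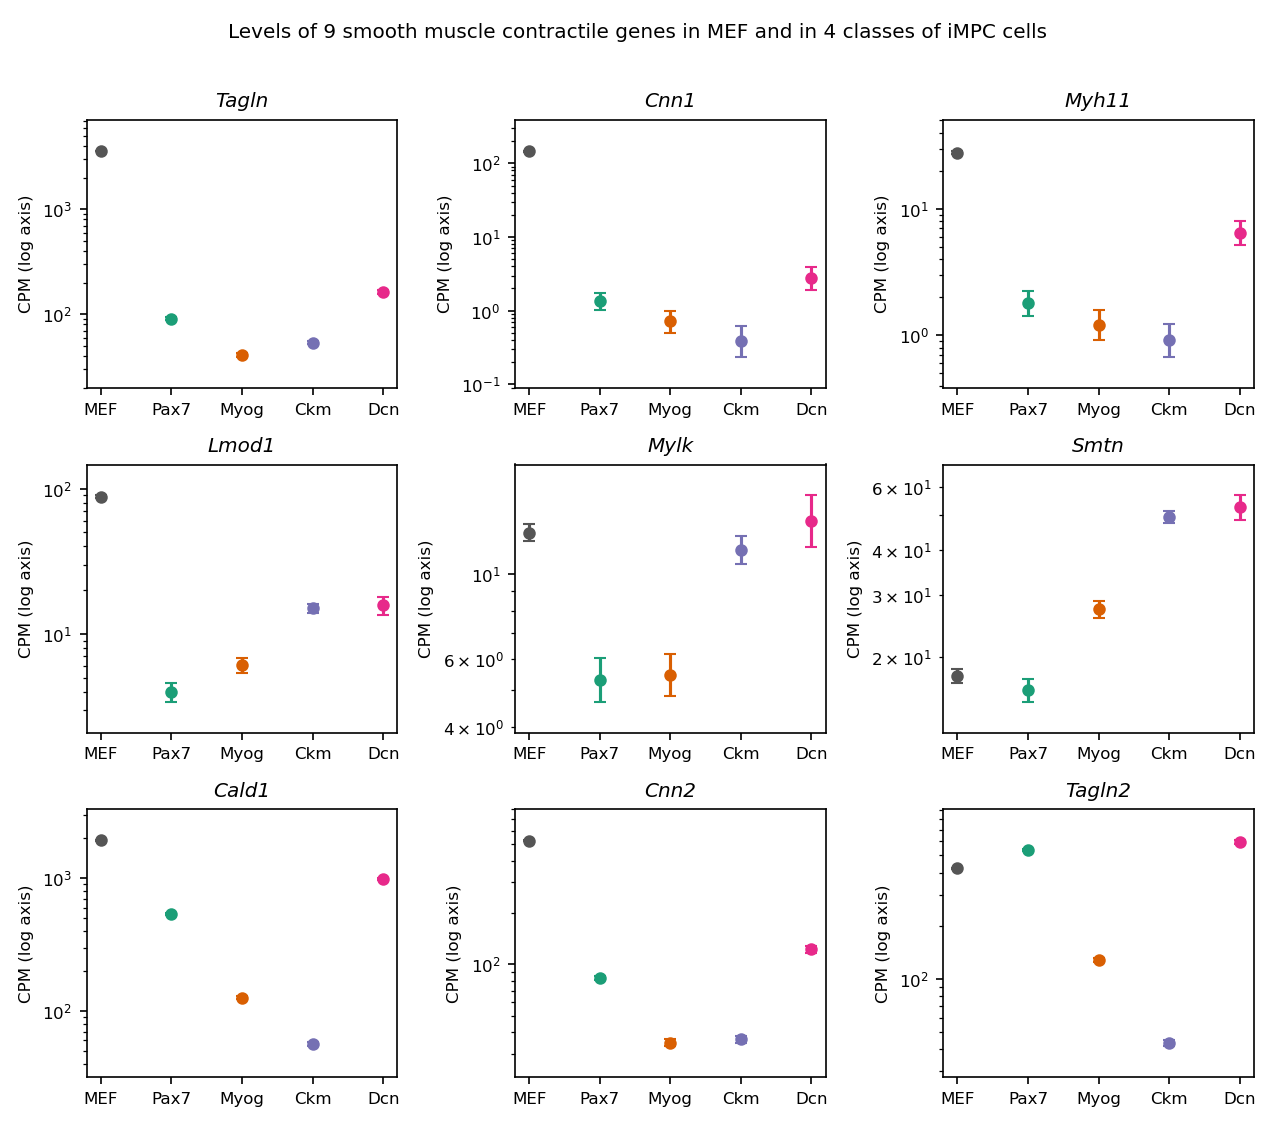
Level of each gene in CPM (log axis, scaled for each gene) in MEF cells and in the Pax7, Myog, Ckm and Dcn classes of iMPC cells; points are group sums and bars are exact 95% Poisson intervals, hidden by the point where narrow. Tagln, Cnn1, Myh11, Lmod1 and Cnn2 are highest in MEF, Smtn is highest in the Ckm and Dcn classes, and Tagln2 and Cald1 are lowest in the Ckm class.

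For counts of genes past a fold, a gene had to average 10 CPM over MEF and the 4 classes, which 7708 genes did. Of the 9 genes 7 passed, Myh11 and Mylk falling short. A gene high in MEF alone can pass through that group, so the counts describe these 7 and are no support for a pattern. In iMPC 5 of the 7 (Tagln, Cnn1, Cnn2, Lmod1 and Cald1) were at least 2-fold lower than in MEF and 0 were higher. Over all 7708 genes 17.2% were lower and 15.4% higher. The median log2 ratio of all 9 genes was -2.79, against -0.08 over the 7708. In the Pax7 class the same 5 were lower and 0 higher than in MEF, against 15.6% and 15.9% of genes.

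The 8 fibroblast markers summed to 5178 CPM in the Dcn class, the highest of the iMPC classes, against 6411 in MEF. Dcn itself, which set the class, is 1 of the 8, so the sum was raised by that choice. This class had 4 of the 7 lower and 1, Smtn, higher than MEF, with 9.63% and 13.3% of all genes. Cald1 was 1.96-fold lower there and so outside that count. In the Ckm class 6 were lower and 1, again Smtn, higher, with 31.5% and 13.5% of all genes. The median gene was itself lower in that class, at -0.44 on the log2 scale, and relative to it Smtn stood at 1.92. These comparisons share the MEF library, so their counts are not independent of each other.

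To compare the shares of cells in which a gene was found, each cell was thinned to 5000 UMIs, which left out 284 shallower MEF cells and 0 iMPC cells. Tagln was then found in 88.8% of MEF cells (87.9 to 89.6) and in 17.5%, 9.46%, 13.7% and 15.01% of the Pax7, Myog, Ckm and Dcn classes. Before thinning the shares were 94.4% of MEF cells and 35.0%, 26.6%, 36.9% and 29.1% of the classes. Cnn1 was found in 23.9% of MEF cells and in 0.321%, 0.290%, 0.0964% and 1.27% of the classes, and Myh11 in 5.33% of MEF cells and at most 1.99% of a class. Lmod1 was found in 25.2% of MEF cells and in 5.98% of the Ckm class, its highest share in iMPC.

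Free RNA sets a limit on the low shares. In iMPC barcodes of 1 to 100 UMIs, Tagln stood at 689 CPM, against 97.9 CPM in the cells. If an assumed 5% of a cell's UMIs had that composition, 15.8% of cells thinned to 5000 UMIs would hold a Tagln UMI. That equals the 15.8% of iMPC cells that did. Without the barcodes that the MEF library lists as cells, the expected share was 14.3%. A share of 430 of 20846 UMIs was also set, the medians of barcodes of 200 to 600 UMIs and of iMPC cells. All barcodes of 1 to 100 UMIs then gave 6.86%. With 5% again and the composition of barcodes of 200 to 600 UMIs, where Tagln was at 66.3 CPM, the expected share was 1.64%. The Tagln shares of the iMPC classes therefore cannot be read as expression in that many cells. For Cald1 the 2 expected shares at 5%, from barcodes of 1 to 100 and of 200 to 600 UMIs, were 12.2% and 3.51%. They lay under the 16.2% of the Ckm class and far under the 81.6% of the Pax7 class. For Cnn1 they were 0.637% and 0.0365%, the first above and the second below the shares of the Pax7, Myog and Ckm classes, from which no order is read. The Cnn1 UMIs were not spread evenly: 74.6% of those of the Pax7 class and 75.8% of those of the Myog class lay in 31 and 9 cells with at least 20 Tagln UMIs, which are described further on. For Smtn they were 0.884% and 0.988%, below the shares of every group.

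Cald1 was detected in 99.8% of MEF cells, 81.6% of the Pax7 class, 34.2% of the Myog class, 16.2% of the Ckm class and 96.6% of the Dcn class. Tagln2 followed the same course in iMPC, with 81.9%, 30.9%, 11.6% and 84.5%, and was in 66.6% of MEF cells. Smtn was detected in 7.54% of MEF cells and in 6.79%, 11.8%, 21.6% and 20.6% of the classes, and Mylk in 4.38% of MEF cells and in 1.79%, 2.15%, 5.21% and 4.70%. The order of groups by share was the order by CPM for Cald1 and Cnn2, and for Smtn up to neighbours whose intervals overlapped. For Tagln it was not, the Dcn class having the highest level in iMPC and the Pax7 class the highest share, and no order is read from these shares.

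**Figure D2:**
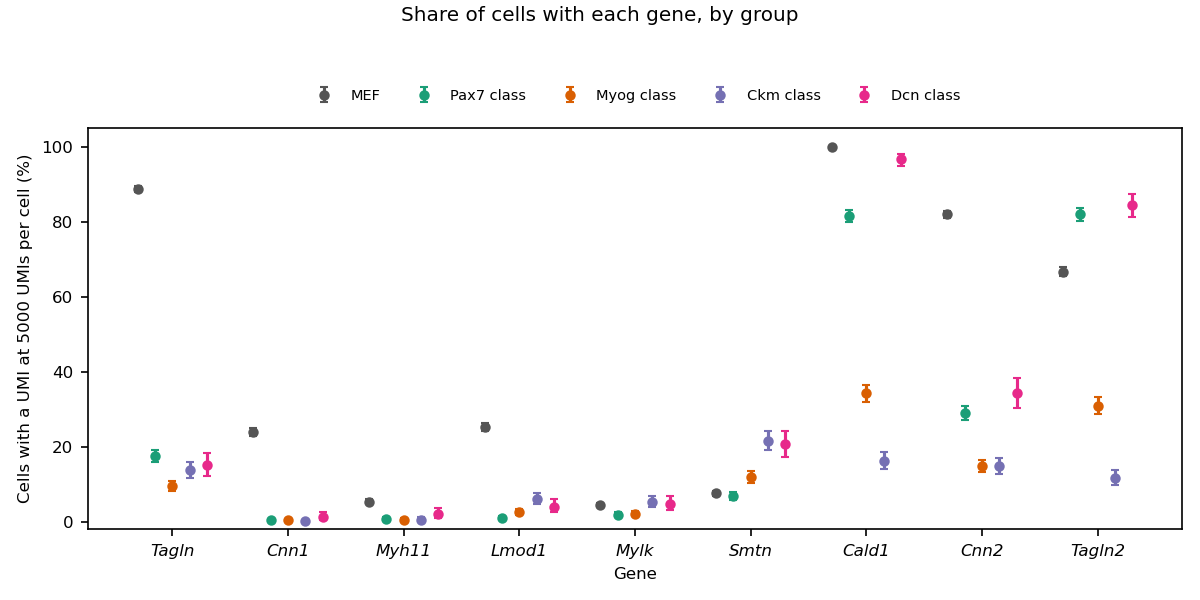
Share of cells with at least 1 UMI of each gene after thinning to 5000 UMIs per cell, in percent, for MEF (5759 cells) and the Pax7 (2180), Myog (1724), Ckm (1037) and Dcn (553) classes of iMPC; bars are exact 95% binomial intervals. Tagln is in 88.8% of MEF cells and at most 17.5% of a class, whereas Cald1 and Tagln2 are in over 80% of the Pax7 and Dcn classes.

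Within iMPC the classes from Pax7 through Myog to Ckm were compared as stages of the muscle lineage. From the Pax7 to the Myog class 4 of the 7 genes were at least 2-fold lower, namely Tagln2 (-2.07 on the log2 scale), Cald1 (-2.09), Cnn2 (-1.26) and Tagln (-1.15). None was higher, while 11.9% of the 7708 genes were lower and 6.54% higher, and the median gene was at -0.14. Smtn was 1.68-fold and Lmod1 1.52-fold higher in the Myog class. With class limits doubled, or with classes set on thinned counts, both passed 2-fold, which raised the count of higher genes from 0 to 2. The Tagln difference fell short of 2-fold with either of these settings, and over 15 alternative settings its log2 ratio ran from -3.11 to -0.66. Without the cells of at least 20 Tagln UMIs it stood almost at 2-fold (27.8 against 55.6 CPM). That limit cuts Tagln itself, so nothing is read from it. That of Cnn2 was -0.81 with classes set on thinned counts.

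From the Pax7 to the Ckm class the 9 genes separated into opposite directions. Tagln2 was 12.4-fold lower (log2 ratio -3.64, -3.70 to -3.57), Cald1 9.57-fold, Cnn1 3.43-fold (from 19 and 59 UMIs) and Cnn2 2.28-fold lower. Smtn was 3.06-fold higher (1.62, 1.49 to 1.74), Lmod1 3.78-fold (1.92, 1.68 to 2.16) and Mylk 2.17-fold (1.12, 0.90 to 1.35). Of the 7 genes that passed the level, 4 were thus lower and 2 higher, with 29.4% and 10.4% of all genes. The Cnn1 difference did not reach 2-fold without the cells of at least 20 Tagln UMIs (0.212 against 0.347 CPM). Subtracting the free RNA of the smallest barcodes took away all Cnn1 UMIs of the Ckm and Myog classes and nearly all of those of the Pax7 class. That setting therefore gives no measured Cnn1 ratio between these classes. The median gene was at -0.46, and relative to it Cnn2 (-0.73) no longer reached 2-fold while Mylk stood at 1.58. Tagln, at -0.76, or -0.30 relative to the median gene, did not reach 2-fold.

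Members were followed through iMPC cells grouped by Ckm alone, leaving out the Dcn class. In 7293 cells with 0 to 1 Ckm UMIs, 484 with 2 to 4, 693 with 5 to 19 and 320 with 20 to 99, Smtn was at 20.3, 40.2, 48.1 and 52.2 CPM. Lmod1 was at 6.81, 11.4, 13.2 and 18.3 CPM in the same order, so both stood higher with each step, although Lmod1 intervals overlapped between the groups of 2 to 4 and 5 to 19 Ckm UMIs and Smtn intervals between those of 5 to 19 and 20 to 99. Mylk was at 9.16, 11.7, 12.1 and 11.2 CPM, and its last 3 groups had overlapping intervals. Tagln2 went from 419 to 69.9, 42.3 and 32.6 CPM and Cald1 from 422 to 79.5, 53.8 and 38.8. Most of the difference in Tagln2 and Cald1 lay between the first and the next group, at 2 to 4 Ckm UMIs. Median depth went from 19385 to 51972 UMIs per cell along this order, and its part in the result was not tested. A further 6 cells with 100 or more Ckm UMIs held 8 Smtn UMIs and are not drawn.

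**Figure D3:**
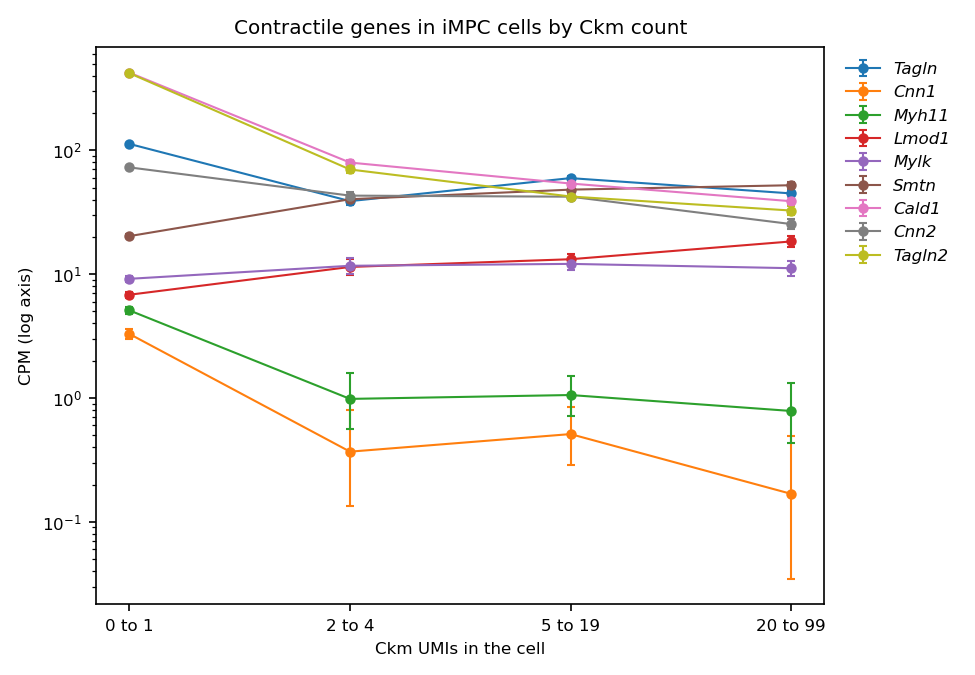
Level of each gene in CPM (log axis) in iMPC cells outside the Dcn class, grouped by the number of Ckm UMIs in the cell; bars are exact 95% Poisson intervals and lines join groups. Smtn and Lmod1 are higher and Tagln2 and Cald1 lower at higher Ckm counts, and Mylk lies between 9.16 and 12.1 CPM.

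Several of the genes were higher in the Dcn class than in the Pax7 class. Of the 7 genes 0 were at least 2-fold lower and 3 higher, Smtn (1.70 on the log2 scale), Lmod1 (1.98) and Cnn1 (1.06), with 5.79% and 10.4% of all genes. Myh11 (1.85) and Mylk (1.37), which did not pass the level, were higher as well, and Tagln2 (0.15) was nearly level. Over cells in exactly 1 class, or without the cells of highest doublet score, Mylk passed the level too, and 6 of the 8 genes were at least 2-fold higher (Tagln, Cnn1, Smtn, Lmod1, Cald1 and Mylk). The Cnn1 value rests on 34 and 59 UMIs and was -0.81 when classes were set on thinned counts. Within the Dcn class, 194 cells with a Pax7 UMI and 359 without differed in Myh11 (2.10 against 9.31 CPM) and Mylk (8.81 against 16.9), and hardly in Smtn (51.0 against 53.7).

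Few iMPC cells held most of the Cnn1 and Myh11 UMIs of the culture. Of 9349 cells, 202 (2.16%) had at least 20 Tagln UMIs, a limit chosen after the values were seen. They held 2.76% of all iMPC UMIs, 56.5% of those of Tagln and, among genes that did not choose the cells, 87.6% of those of Cnn1, 71.1% of Myh11, 36.5% of Mylk and 31.4% of Lmod1. For Cnn2 the share was 13.5%, for Cald1 9.31%, for Tagln2 8.38% and for Smtn 6.85%. The 235 cells just below the limit, with 10 to 19 Tagln UMIs, stood at 2.75 CPM of Cnn1, against 78.3 CPM in the 202 cells and 0.314 CPM in all iMPC cells under the limit. With the limit set on thinned counts, at 5 Tagln UMIs of 5000, 199 cells were chosen, with 95.1 CPM of Cnn1 and 126 CPM of Myh11.

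**Figure D4:**
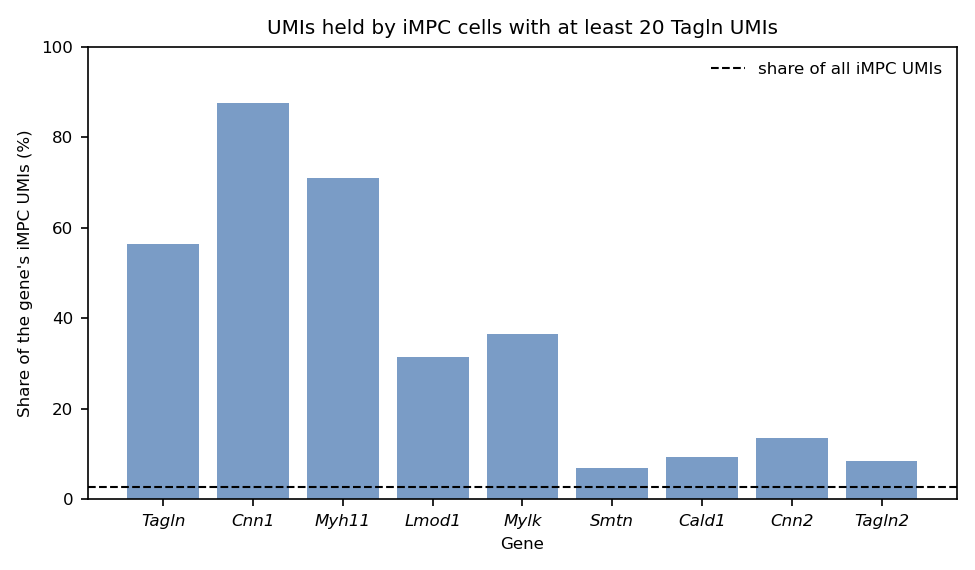
Share of each gene's iMPC UMIs, in percent, that lay in the 202 iMPC cells with at least 20 Tagln UMIs; the dashed line is their share of all iMPC UMIs, 2.76%. Tagln chose the cells, so its bar is not a finding; Cnn1 and Myh11 lie mostly in these cells, and Smtn and Tagln2 mostly outside them.

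These 202 cells were compared with MEF by level. Myh11 was at 104 CPM in them, Mylk at 133.5, Smtn at 72.8, Lmod1 at 106 and Tagln2 at 991. In the 3856 MEF cells with at least 20 Tagln UMIs, the same genes were at 38.0, 16.1, 19.98, 116 and 521 CPM. Mylk was thus 8.29-fold, Smtn 3.65-fold and Myh11 2.73-fold higher in the iMPC cells, while Cnn1 was 2.55-fold and Tagln 2.40-fold lower. The limit took 63.8% of MEF cells and 2.16% of iMPC cells, so 116 MEF cells were set beside them as well, the same 2.16% of the MEF cells with at least 8036 UMIs, taken by the highest Tagln share of a cell's UMIs. Those had 416 CPM of Myh11 and 1338 of Cnn1, 4.001-fold and 17.1-fold above the iMPC cells, and 89.4 CPM of Mylk and 38.4 of Smtn, 1.49-fold and 1.89-fold below them. Mylk and Smtn were therefore higher in the iMPC cells against either choice of MEF cells, and the direction for Myh11 depended on the choice.

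Other genes of contraction were also higher in the 202 cells. Actg2, the enteric smooth muscle actin, was at 403 CPM against 2.96 in the other iMPC cells, Acta2, the vascular one, at 4176 against 510, and Myl9 at 626 against 26.8. Of 12 smooth muscle and pericyte markers, 9 stood at 10 CPM or more, as in the Dcn class and in iMPC cells outside the 4 classes, against 6 in the other iMPC cells. The 12 summed to 5769 CPM, against 1844 in the other iMPC cells and 6540 in MEF. Acta2 alone gave 4176 of the 5769 CPM. Des, one of the 12 and also a muscle gene, was lower in the 202 than in the other iMPC cells, at 778 against 1212 CPM. Of the 9 markers, Mcam stood at 119 CPM in the 202 cells against 9.06 in the other iMPC cells. Pdgfrb was at 125.5 against 36.6, Notch3 at 92.8 against 32.4, Kcnj8 at 26.7 against 8.51 and Abcc9 at 23.9 against 11.8. Rgs5 stood at 18.2 CPM. Cspg4 (4.99 CPM) and Higd1b (0.78) were under 10 CPM. Myocd, myocardin itself, had 0 UMIs, but the other iMPC cells held only 22, too few to read this as absence. Rgs5 was no higher in the 202, with 18.4 CPM in the other iMPC cells. Fibroblast genes were present too, the 8 fibroblast markers summing to 3289 CPM against 920 in the other iMPC cells. Among them Col1a1 was at 951 against 54.4, Col3a1 at 1200 against 492.5, Thy1 at 452.5 against 127 and Dcn at 85.8 against 64.3. Postn, which is not 1 of the 8, was at 179 against 9.03. Endothelial markers summed to 0.468 CPM, with Cdh5, Kdr and Tek at 0.

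Muscle genes were not absent from the 202 cells, with Myog at 312 CPM, Ckm at 69.1 and Pax7 at 18.4, against 577, 96.6 and 45.8 in the other iMPC cells. Of the 202, 31 were in the Pax7 class, 9 in the Myog class, 28 in the Ckm class and 20 in the Dcn class, and 116 were in none, some cells being in more than 1. Their median depth was 27920.5 UMIs, none shared a barcode with a MEF cell, and 18 (8.91%) were among the highest 5% of doublet scores, against 4.87% of all iMPC cells. The part of doublets and depth in these values was not tested. After thinning, 81 of the 202 (40.1%) held at least 6 of the 9 genes, Tagln included, as did 20.5% of the MEF cells with at least 20 Tagln UMIs. That count was not made for the 116 MEF cells with the highest Tagln share. Cnn1 was found in 92.2% of those after thinning, against 24.3% of the 202. Lmod1, Cnn2, Myh11, Tagln2 and Cald1 were also in a larger share of the 116. Mylk (21.6% against 33.7%) and Smtn (20.7% against 35.15%) were in a smaller share.

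Without the 202 cells Cnn1 and Myh11 were lower still in iMPC, at log2 ratios to MEF of -8.87 and -4.54, and Tagln was at -6.36. The counts of iMPC against MEF stayed at 5 lower and 0 higher. In the Dcn class, 20 such cells held 68.1% of the Tagln and 68.4% of the Myh11 UMIs. Without them its levels were 54.8 CPM of Tagln, 2.17 of Myh11, 7.65 of Lmod1 and 6.78 of Mylk, and the log2 ratio of Tagln to the Pax7 class, with such cells left out of both, was -0.02. Smtn stayed at 49.7 CPM. Tagln set the limit, so every Tagln value without such cells is lowered by that choice, and nothing is read from it. Against the Pax7 class without such cells, Mylk (6.78 against 3.64 CPM) and Cnn1 (0.521 against 0.347) no longer reached 2-fold in the Dcn class, while Smtn, Lmod1 and Myh11 did. In the Ckm class, Lmod1 and Mylk were little affected, with 3.28% and 4.63% of their UMIs in the 28 such cells, so that their levels there came from other cells.

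In MEF the 9 genes varied from cell to cell together with Acta2, α-smooth muscle actin, a gene of the companion list and no member. The thinned MEF cells were ordered by Acta2 UMIs into 4 bins of 1440, 1440, 1440 and 1439 cells, with 0 to 3, 3 to 17, 17 to 42 and 42 to 313 Acta2 UMIs. Tagln stood at 385, 1705, 3642 and 7948 CPM from the lowest bin to the highest, and Cnn1 at 2.22, 22.8, 86.9 and 417.5 CPM. Lmod1 went from 7.36 to 37.5, 96.3 and 177 CPM, and Myh11 from 1.25 to 3.06, 6.11 and 80.9. Myh11 thus lay mostly in the highest bin, whereas Tagln and Lmod1 differed at every step.

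The other members were higher in each higher bin too, by less. For Mylk and Smtn the intervals of the middle bins overlapped, and for Smtn also those of the lowest bin and the next. Mylk was at 3.06, 6.81, 10.7 and 24.3 CPM, Cnn2 at 202, 419, 594 and 816, and Tagln2 at 154, 235, 485 and 771. Cald1 went only from 1350 to 2440 CPM and Smtn from 9.44 to 26.5. Col1a1 likewise went from 1413 to 2821 CPM, whereas Dcn ran the other way, from 451 to 129. Median depth before thinning was 17452 UMIs in the lowest bin and 20846 in the highest. The bins also differed in Mki67, a gene of cycling cells, at 1.39, 14.3, 26.0 and 21.4 CPM, and its part was not tested.

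**Figure D5:**
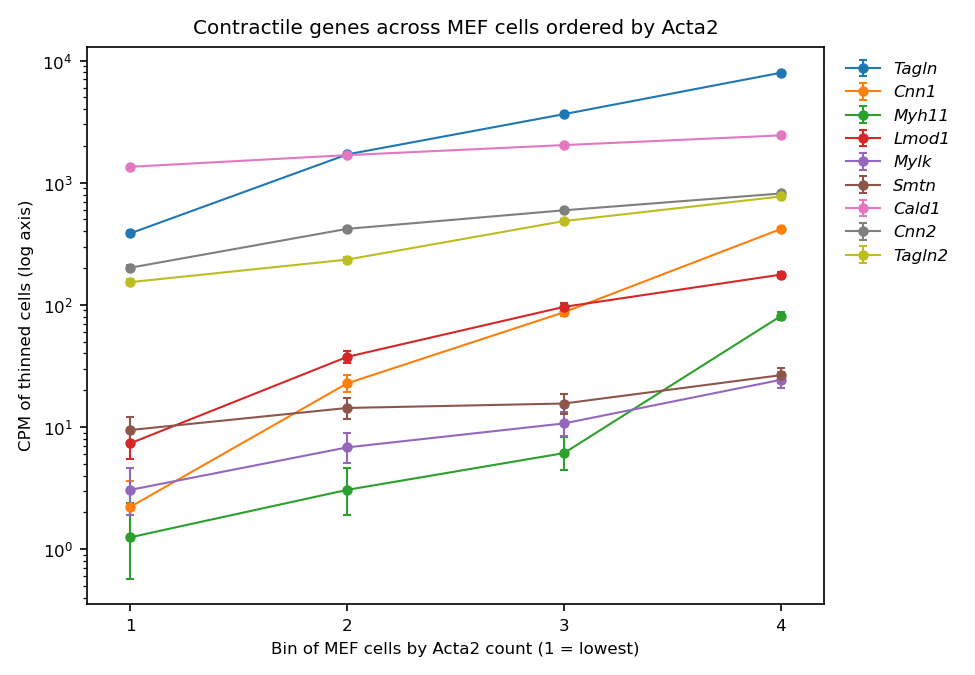
Level of each gene in CPM (log axis) in 4 bins of the 5759 thinned MEF cells ordered by Acta2 UMIs; bars are exact 95% Poisson intervals and lines join bins. All 9 genes are higher in the highest bin than in the lowest, Cnn1 from 2.22 to 417.5 CPM and Cald1 from 1350 to 2440.

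Pairs of members were correlated over the 5759 thinned MEF cells as a description, since cells of 1 library share their culture and processing. Pearson's r was highest for Tagln with Cnn2 (0.55), Tagln with Cnn1 (0.51) and Cnn1 with Myh11 (0.44), and lowest for Tagln2 with Mylk (0.03). Among 5104 genes found in at least 10% of MEF cells, those with the highest r with the summed members were Acta2 (0.85), Myl9 (0.74), the tropomyosin Tpm1 (0.71), Actb (0.69), Tpm2 (0.66) and Myl6 (0.65). Tmsb4x (0.64), Csrp1 (0.61), Fhl1 (0.61) and Dstn (0.60) completed the first 10. The lowest was Fth1 (-0.49), a ferritin chain. Tagln itself had an r of 0.93 with that sum, so the list largely ranks likeness to Tagln.

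Over the 5 groups, genes were ranked by the distance of their centred log2(CPM + 1) levels from those of 4 members. Nearest to Tagln were Vegfd (0.45), Il1rl1 (0.62) and Cnn1 (0.80), and nearest to Cnn1 were Lrrc15 (0.20), Il1rl1 (0.62) and Aspn (0.63). Vegfd, for one, stood at 94.5 CPM in MEF and at 1.52, 0.217, 0.411 and 5.18 CPM in the classes. Nearest to Tagln2 were Nrp1 (0.25), Cav1 (0.41) and Mgst1 (0.49), and nearest to Mylk were Atp6v0a1 (0.22), Reep5 (0.31) and Smad3 (0.31). With 5 groups such distances describe shape alone.

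Other genes of the contractile system were read from a list of 62, of which 52 passed the level. In iMPC 28 were at least 2-fold lower and 10 higher than in MEF, with a median log2 ratio of -1.14, beside the 17.2% and 15.4% of all genes. Targets linked to SRF or transforming growth factor β were lower, among them Thbs1 (-7.05), Col1a1 (-4.86), Fhl2 (-3.81), Ccn2 (-3.63), Postn (-3.53), Tgfb1i1 (-3.38), Fn1 (-2.71), Ccn1 (-1.33), Csrp1 (-1.31) and Fhl1 (-1.14). Of the regulators, Klf4, a repressor of the smooth muscle program, was lower (-2.24), and Mrtfb was at -0.82. Srf was at 13.2 CPM in MEF and 9.76 in iMPC, and Mrtfa at 15.2 and 4.78, both short of the level. Myocd had 13 UMIs in MEF and 22 in iMPC, too few to compare.

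Of 14 thin filament genes of the list 5 were lower and 5 higher in iMPC than in MEF. Lower were the smooth muscle actins Actg2 (-4.62) and Acta2 (-3.32), the non-muscle actins Actb (-2.59) and Actg1 (-1.98), and Tpm4 (-1.50). Higher were the striated muscle actins Actc1 (13.56) and Acta1 (5.61) and the filament cap Tmod1 (6.20). Tpm1 (-0.16), Tpm2 (0.78), Tpm3 (-0.84) and Tmod3 (0.05) did not reach 2-fold. Lmod2 and Lmod3, the leiomodins of striated muscle, had 0 UMIs in MEF, whereas Lmod1 was 9.49-fold lower in iMPC. Against a floor of 3 UMIs over the group they were 2106-fold and 3166-fold higher in iMPC, with lower limits of 10.74 and 11.33 on the log2 scale. From the Pax7 to the Ckm class all 3 leiomodins were higher, Lmod2 102-fold, Lmod3 68.8-fold and Lmod1 3.78-fold.

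Of 9 paralogs of the members 5 passed the level, and 2 were lower and 2 higher. Mylk4 had 0 UMIs in MEF and was 2633-fold higher in iMPC against the floor of 3 UMIs, with a lower limit of 11.06 on the log2 scale. Smtnl2 was higher by 8.64 on that scale, while the non-muscle heavy chains Myh9 (-1.51) and Myh10 (-1.14) were lower and Cnn3 (0.31) nearly level. Of 10 light chains and genes of their control, Myl9 (-3.98), Myl6 (-1.50) and Myl12b (-1.44) were lower, and Ppp1r14a, which inhibits the light chain phosphatase, was higher (1.65), the other 6 being short of 2-fold. Of the anchoring genes Actn1 (-3.36), Flna (-3.22), Itga8 (-2.56), Vcl (-1.28), Actn4 (-1.18) and Vim (-1.03) were lower, and Des (10.33) and Synpo2 (2.98), genes of the muscle Z-disc and its filaments, were higher. Acta2 did not follow Tagln within iMPC: it was at 308 CPM in the Pax7 class, 815 in the Myog class, 737 in the Ckm class and 506 in the Dcn class, lowest where Tagln was intermediate.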

How the data were processed

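Cells were loaded on the 10x Genomics 3′ kit in version 3, per the labels' protocols. The authors deposited raw UMI counts per gene and barcode, made with Cell Ranger 4.0, and the submitters' processing notes also name Seurat 3.2.3 and GRCm38.p6. The iMPC matrix lists 6794880 barcodes and the MEF matrix 6113, whose selection is not given in the sources used here. The MEF sample carries the iMPC protocol text, and its own treatment label was used. Of the 26100 shared genes, 25989 identifiers were found in GENCODE M21.

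An iMPC barcode counted as a cell when its UMIs exceeded 10% of the 99th percentile taken over the 10000 largest barcodes, that is from 8036 UMIs. In both libraries over 20% mitochondrial UMIs removed a cell, 191 in iMPC and 70 in MEF. Doublets were scored with Scrublet in scanpy 1.11.5 and kept. Its own threshold marked 337 iMPC cells (3.60%) and 1 MEF cell, which shows no working threshold in MEF, so the highest 5% of scores were removed as an alternative. UMIs were summed per group, with exact Poisson intervals for levels, exact conditional ones for ratios and exact binomial ones (Clopper-Pearson) for shares, using Python 3.11.15, numpy 2.4.6, scipy 1.17.1 and pandas 2.3.3. Ratios, intervals and thinning were tested on simulated data. A gene counted as called at 2-fold or more with a mean of 10 CPM over MEF and the 4 classes. All 9 members are named, and companion genes at 2-fold or more in iMPC against MEF with values. The members, classes and lists were chosen with earlier results of these data known. The limit of 20 Tagln UMIs, the genes given for the cells above it and the 3 alternatives added to the 14 planned ones were chosen after values were seen. The values of 1 gene of the companion list are not reported here, and the counts over that list include it.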

Additional observations from a re-analysis of the deposited data

Results flagged for a closer look

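The members were also found in iMPC barcodes too small to be cells, which are in none of the groups compared and serve only as profiles of free RNA. Apart from Mylk and Smtn in the first set described, each stood above the level that 3 UMIs would give. They were strongest in 5402 barcodes of 1 to 100 UMIs that the MEF library lists as cells, where the median was 55 UMIs against 2 in the 2631178 other barcodes of that size. There Tagln was at 2816 CPM, Cald1 at 1590, Cnn2 at 419, Tagln2 at 330.3, Cnn1 at 126, Lmod1 at 74.9 and Myh11 at 13.6 CPM, Mylk had 0 UMIs and Smtn 1. Acta2 was at 5582 CPM and Col1a1 at 2238, near their MEF levels of 6108 and 2289, and Myog at 78.3. What put these UMIs on barcodes of the MEF library was not tested, and 16 kept iMPC cells carry such a barcode.

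In the other barcodes of 1 to 100 UMIs, Tagln was at 615 CPM, Cald1 at 481, Tagln2 at 308, Cnn2 at 106, Smtn at 36.6, Lmod1 at 23.5, Cnn1 at 22.1, Mylk at 10.3 and Myh11 at 5.20 CPM. In 48846 barcodes of 200 to 600 UMIs Tagln was lower, at 66.3 CPM, with Cald1 at 143, Tagln2 at 142.7, Cnn2 at 47.1, Smtn at 39.7, Lmod1 at 11.4, Mylk at 6.21, Myh11 at 1.79 and Cnn1 at 1.46 CPM. For Tagln and Cnn1 the smaller barcodes stood above the 97.9 and 2.46 CPM of iMPC cells and the larger ones below. The same held for Cald1 and Cnn2, at 351 and 65.6 CPM in iMPC cells. Myh11 (4.03) and Mylk (10.09) ran alike, but the intervals of the smaller barcodes and the cells overlapped.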

How the results depend on the processing

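Of 238 counts of members past 2-fold under 17 alternatives, 225 stayed within 1.5 times the value reported. With a mean of 50 CPM in place of 10, only Tagln, Tagln2, Cnn2 and Cald1 passed, and fewer genes tested gave 3 lower in iMPC and in the Pax7 class against MEF, 2 lower and 0 higher in the Dcn class against MEF, and 0 higher in the Ckm class against MEF and in the Ckm and Dcn classes against the Pax7 class. With no minimum level, 5 of the 9 were higher in the Dcn than in the Pax7 class, and 6 of the 8 that passed in cells of exactly 1 class or without the highest 5% of doublet scores. In the Myog class against the Pax7 class, 2 were higher with doubled class limits or classes set on thinned counts, and 1 without the iMPC cells of at least 20 Tagln UMIs. The cause was not tested. Of 945 ratios of single members under 15 alternatives, 627 lay inside the counting interval of the reported value, 317 outside it with no called change of sign, and 1 reversed: Cnn1 in the Dcn class against the Pax7 class, -0.81 with classes set on thinned counts. Of 135 shares of cells under 3 alternatives 126 lay outside their counting interval. No paired analysis was possible because each group held 1 library. Intervals cover counting error alone, and levels under that of 3 UMIs (0.0254 CPM in MEF, 0.0129 in iMPC) could not be seen.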
